A study of Mus musculus with 6 samples.

Results

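The report concerns 10 genes used to recognise haematopoietic stem cells, taken by name from the deposited table: Procr, Slamf1, Cd48, Hlf, Mecom, Fgd5, Ctnnal1, Mllt3, Esam and Cd34. Each matched 1 row, so 10 of the 22475 genes in the table were members. All 10 passed the filter on low counts, which left 13217 genes to test. RNA had been sequenced from bone marrow cells sorted as lacking lineage markers and carrying Sca1 and cKit, in 2 groups of mice with 3 libraries each. In the FLT3-ITD miR-155 KO group (KO below) the mice carried a homozygous deletion of the microRNA miR-155, and both copies of Flt3 bore FLT3-ITD, a duplicated stretch within the gene that leaves this cytokine receptor kinase signalling without its ligand. In the FLT3-ITD group the mice were homozygous for the same FLT3-ITD and wild type for miR-155, so both groups carried the FLT3 mutation and no group had normal FLT3. Each library was made from the pooled RNA of 3 mice, and the sources used here do not give the age, sex or strain of the mice. The p-values therefore measure the spread between pools.

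The sorted gate holds haematopoietic stem cells and the multipotent progenitors that descend from them, and progenitors are the large majority of it in mouse marrow. Stem cells are told apart within the gate by surface proteins that they carry (EPCR, encoded by Procr; CD150, encoded by Slamf1; ESAM) and by proteins that they lack or carry at low level while progenitors have them (CD48; in adult mice, CD34). A second kind of marker is a gene whose activity is concentrated in stem cells, such as the transcription factors Hlf and Mecom or the reporter genes Fgd5 and Ctnnal1. In bulk RNA, fewer cells of a type and less RNA per cell cannot be told apart.

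The deleted microRNA acts by pairing its seed, bases 2 to 8, with sites in the 3' untranslated regions of messenger RNAs. Its mature sequence is shown so that the absence of a match in the members can be read against it, with the seed in capitals and taken from RefSeq on GRCm38.p6 (chromosome 16, bases 84714143 to 84714165, plus strand).
mmu-miR-155-5p: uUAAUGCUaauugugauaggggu
In the longest 3' untranslated region annotated for each member, 0 of the 10 held AGCATTA or GCATTAA, the 7-base matches to that seed, or AGCATTAA, the 8-base match that contains both. Among 11761 tested genes with an annotated 3' untranslated region, 14.67% held a match of 7 or 8 bases. The members' regions were between 381 bases (Cd48) and 4223 bases (Hlf) long. No match says only that these letters are not in these regions.

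Kit and Ly6a, the genes of the gate's surface markers, were read as RNA in every library. Their levels do not measure the purity of the sort, and markers of other cell types are given further below. Kit, the receptor for stem cell factor, stood at 242, 348 and 305 CPM (counts relative to library size) in the KO libraries numbered 1, 2 and 3. In the FLT3-ITD libraries Kit stood at 241, 387 and 343 CPM. The number 1 library was thus the lowest of both groups for Kit, as it was for 23.0% of all genes tested. Ly6a, which encodes Sca1, stood at 127, 124 and 110 CPM in the KO libraries and at 121, 109 and 105 CPM in the FLT3-ITD libraries. The host transcript of miR-155, Gm26667, had 4, 14 and 4 counts in the KO libraries and 33, 48 and 36 counts in the FLT3-ITD libraries. On the log2 scale KO over FLT3-ITD was -2.14 ± 0.46 (SE); the adjusted p in edgeR was 0.274 without, and 0.0377 with, a block for replicate number, and DESeq2 gave 0.0182 and limma-voom 0.2697 without it. Library totals ran from 6843129 to 7601317 counts in the KO group and from 8136914 to 9443615 counts in the FLT3-ITD group.

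The 10 genes covered a wide span of levels. Per length, as FPKM (fragments scaled to gene length and library size) in the authors' table, Cd34 averaged 337 ± 87.2 FPKM in KO and 347 ± 59.95 FPKM in FLT3-ITD libraries (SD, n = 3 each), and Cd48 averaged 273 ± 5.11 FPKM in KO and 252 ± 5.39 FPKM in FLT3-ITD libraries. These 2 genes, which mark progenitors more than stem cells, were the 2 highest in every library. Hlf followed with 10.3 ± 4.60 FPKM in KO and 13.2 ± 5.19 FPKM in FLT3-ITD libraries, and Procr with 7.15 ± 3.61 FPKM in KO and 9.39 ± 4.14 FPKM in FLT3-ITD libraries. Over all 6 libraries Mecom averaged 5.21 FPKM, Mllt3 5.18, Esam 4.40, Fgd5 2.60, Ctnnal1 1.46 and Slamf1 0.520 FPKM. Slamf1 was the lowest in all 6 libraries. Neighbours in this order were not cleanly apart: Cd34 lay above Cd48 in all libraries except KO number 1, and Mllt3 ranged from place 3 in KO number 1 to place 7 in 3 other libraries. Hlf lay above Procr in all 6.

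**Figure D1:**
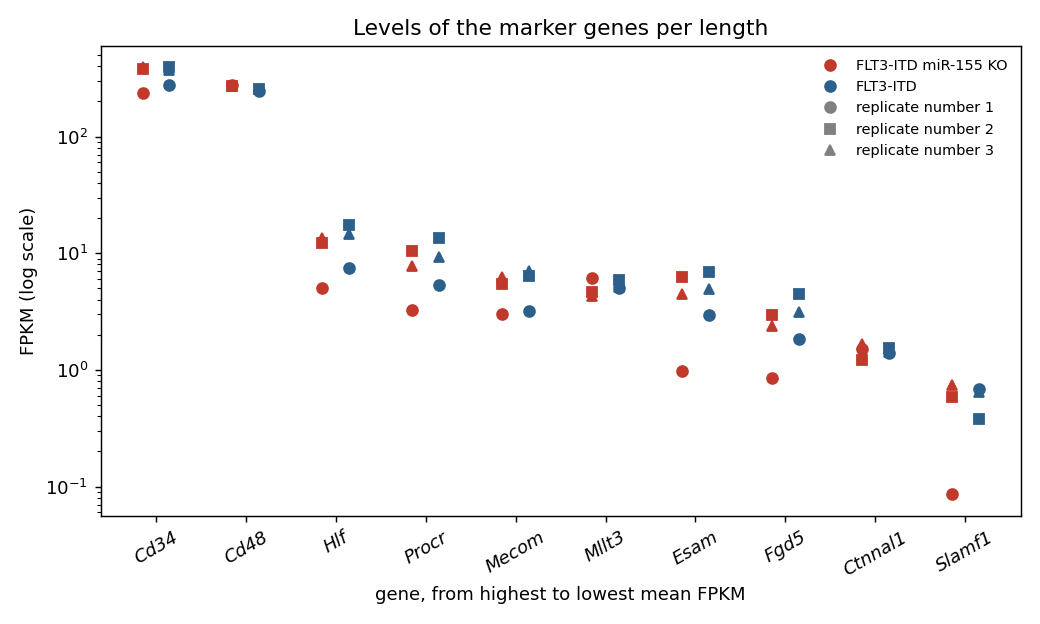
FPKM of each marker gene on a log axis, with genes ordered by their mean over the 6 libraries; red points are FLT3-ITD miR-155 KO libraries, drawn left of the blue FLT3-ITD libraries, and the point shape gives the replicate number. Cd34 and Cd48 lie above 200 FPKM in every library and Slamf1 below 1 FPKM.

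The comparison of KO with FLT3-ITD addressed how the loss of miR-155 bears on the level of these genes in cells with FLT3-ITD. No marker gene passed. Of the 10, 0 had an adjusted p under 0.05 in edgeR's quasi-likelihood test, and 0 had an unadjusted p under 0.05, which 3.9% of all genes tested had. Over all 13217 genes, 0.159% passed the adjusted threshold, 0.0151% with KO higher (2 genes) and 0.144% with KO lower (19 genes). DESeq2 and limma-voom also called 0 of the 10, where over all genes DESeq2 called 131 and limma-voom 17. With a block for replicate number, 1.36% of all genes passed, 0.318% with KO higher and 1.04% with KO lower, and again 0 of the 10. The adjusted p of every member was 0.9996 in edgeR without the block. Fold changes below are from that fit, as log2 of KO over FLT3-ITD. Of them, 8 were negative, as were 49.8% of those of all genes, and their median was -0.24, against 0.001 for all genes tested.

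**Figure D2:**
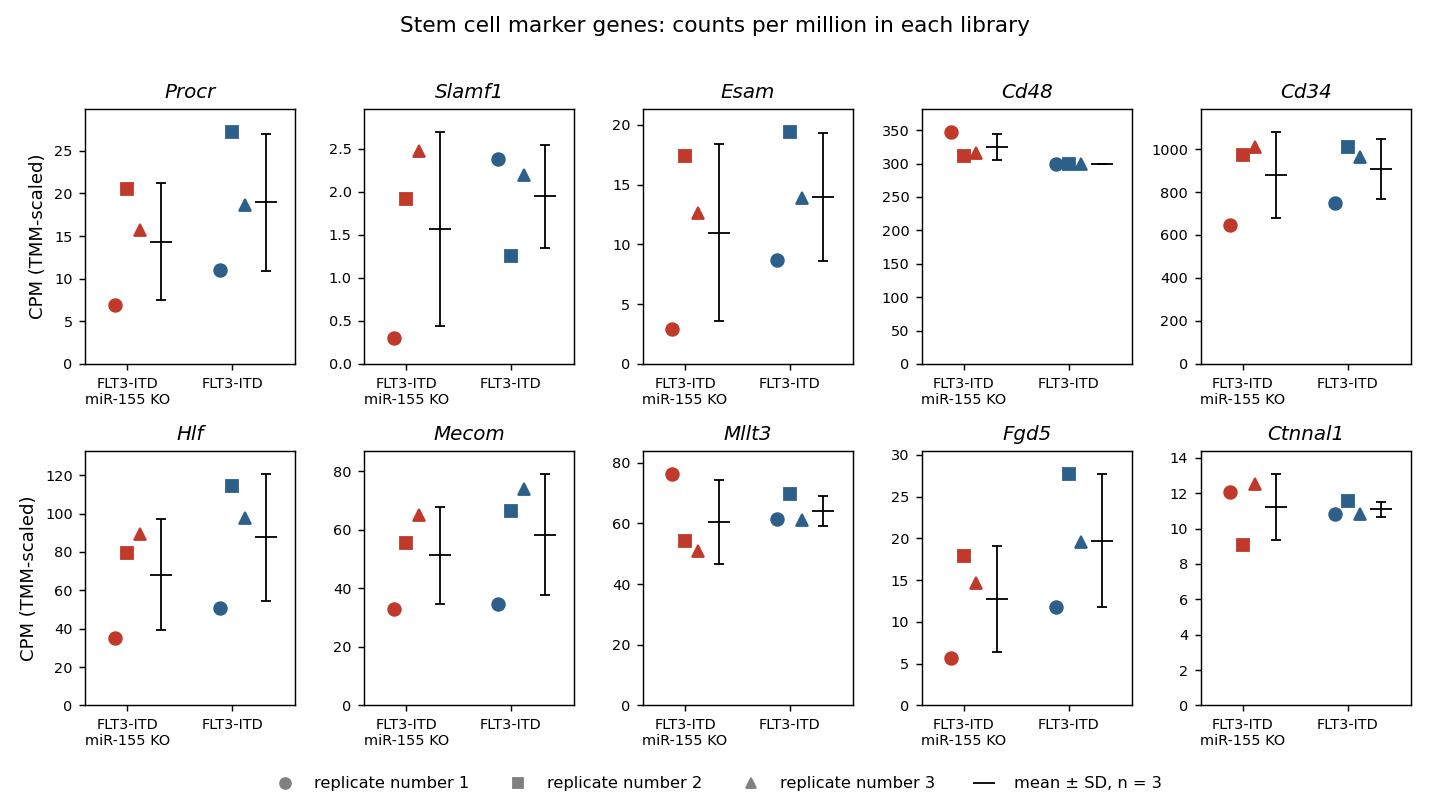
CPM of each marker gene in every library, FLT3-ITD miR-155 KO left and FLT3-ITD right in each panel, with the point shape giving the replicate number and black bars the mean ± SD (n = 3). The groups overlap for every gene except Cd48, and the number 1 libraries are the lowest of both groups for Procr, Esam, Cd34, Hlf, Mecom and Fgd5.

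Among the surface markers that stem cells carry, Procr, which encodes the endothelial protein C receptor (ENSMUSG00000027611, chromosome 2, 155751117 to 155755471 on GRCm38), stood at 6.88, 20.5 and 15.7 CPM in the KO libraries 1, 2 and 3 and at 11.1, 27.2 and 18.7 CPM in the FLT3-ITD libraries. The library numbered 1 was the lowest of its group in both groups, and the groups overlapped. The log2 fold change was -0.39 ± 0.44 (SE), with a 95% interval of -1.42 to 0.63. Esam, an adhesion molecule of stem cells and endothelium (ENSMUSG00000001946, chromosome 9, 37528078 to 37538319), stood at 2.91, 17.4 and 12.7 CPM in the KO libraries and at 8.67, 19.4 and 13.9 CPM in the FLT3-ITD libraries. KO number 1 held 19 counts of it, far below the next lowest library, FLT3-ITD number 1 with 80 counts. The log2 fold change was -0.34 ± 0.56 (SE; 95% interval -1.65 to 0.98), and without KO number 1 it was 0.11.

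Slamf1 encodes CD150, the receptor of the SLAM family that stem cells carry (ENSMUSG00000015316, chromosome 1, 171767127 to 171801184). It had 2, 15 and 18 counts in the KO libraries and 22, 11 and 18 counts in the FLT3-ITD libraries, which is 0.306, 1.92 and 2.48 CPM in KO and 2.39, 1.26 and 2.19 CPM in FLT3-ITD. The counts were low in all libraries, and the 2 counts in KO number 1 lay under the limit that a count of 0 allows there, 0.459 CPM. The exact Poisson interval of that library, 0.0370 to 1.105 CPM (95%, counting error only), lay below the interval of 1.495 to 3.61 CPM in FLT3-ITD number 1 and that of 1.30 to 3.47 CPM in number 3, and overlapped that of 0.629 to 2.255 CPM in number 2. KO number 2 lay within the span of the FLT3-ITD libraries and KO number 3 slightly above their highest. The log2 fold change was -0.29 ± 0.60 (SE), with a 95% interval of -1.69 to 1.11. That interval includes a 2-fold difference in either direction, so a difference of that size is not excluded.

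Cd48 encodes a second SLAM family receptor, anchored to the membrane by lipid, that progenitors carry and stem cells lack (ENSMUSG00000015355, chromosome 1, 171682009 to 171705258, the same chromosome as Slamf1). It stood at 347, 312 and 316 CPM in the KO libraries and at 299.4, 299.8 and 299.5 CPM in the FLT3-ITD libraries. It was the 1 member whose groups did not overlap, with all KO libraries above all FLT3-ITD libraries, and 3.43% of all tested genes had groups apart in that direction. With KO below FLT3-ITD, 0 of 10 members had groups apart, against 4.79% of all genes. The mean was 324.8 ± 19.2 CPM in KO and 299.6 ± 0.176 CPM in FLT3-ITD libraries (SD, n = 3 each). The SD of the FLT3-ITD libraries is smaller than counting error alone would give at their 2762, 2616 and 2457 counts. It is therefore no measure of how precisely the level is known. The log2 fold change was 0.12 ± 0.08 (SE; 95% interval -0.06 to 0.29), with an unadjusted p of 0.163, the smallest among the members, and an adjusted p of 0.9996 in edgeR. Cd34, a sialomucin of short-term stem cells and multipotent progenitors in the mouse (ENSMUSG00000016494, chromosome 1, 194938819 to 194961279), stood at 648.5, 974 and 1011.5 CPM in the KO libraries and at 748, 1009 and 964 CPM in the FLT3-ITD libraries. Its number 1 libraries were the lowest of both groups, and the log2 fold change was -0.05 ± 0.19 (SE; 95% interval -0.50 to 0.41).

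Among the regulators of transcription, Hlf, a bZIP factor concentrated in stem cells (ENSMUSG00000003949, chromosome 11, 90336536 to 90390895), stood at 35.3, 79.5 and 89.5 CPM in the KO libraries and at 50.6, 115 and 97.5 CPM in the FLT3-ITD libraries. Both number 1 libraries were low, and the log2 fold change was -0.36 ± 0.39 (SE; 95% interval -1.28 to 0.56). Mecom, a zinc finger factor needed to maintain stem cells in the mouse (ENSMUSG00000027684, chromosome 3, 29951296 to 30548008), stood at 33.03, 55.6 and 65.05 CPM in the KO libraries and at 34.8, 66.3 and 73.9 CPM in the FLT3-ITD libraries. The number 1 libraries of the groups differed little from each other and lay well below the others, and the log2 fold change was -0.18 ± 0.33 (SE; 95% interval -0.95 to 0.58). Mllt3, which encodes the elongation and chromatin factor AF9 (ENSMUSG00000028496, chromosome 4, 87769925 to 88033364), stood at 76.3, 54.3 and 50.9 CPM in the KO libraries and at 61.6, 69.8 and 60.95 CPM in the FLT3-ITD libraries. Here KO number 1 was the highest library of all, and the log2 fold change was -0.08 ± 0.16 (SE; 95% interval -0.46 to 0.29).

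Fgd5 and Ctnnal1 are genes whose reporter alleles are used to mark stem cells in mice. Fgd5, an exchange factor for the small GTPase Cdc42 (ENSMUSG00000034037, chromosome 6, 91978878 to 92076004), stood at 5.66, 17.9 and 14.7 CPM in the KO libraries and at 11.8, 27.7 and 19.6 CPM in the FLT3-ITD libraries. Its log2 fold change of -0.62 ± 0.44 (SE; 95% interval -1.66 to 0.42) was the most negative of the members. The groups overlapped, because KO numbers 2 and 3 lay above FLT3-ITD number 1. Ctnnal1, which encodes alpha-catulin (ENSMUSG00000038816, chromosome 4, 56810935 to 56865188), stood at 12.1, 9.08 and 12.5 CPM in the KO libraries and at 10.8, 11.6 and 10.9 CPM in the FLT3-ITD libraries. It showed no low number 1 library, and the log2 fold change was 0.02 ± 0.18 (SE; 95% interval -0.40 to 0.43).

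Most of the members split by how they varied between pools, a split seen in the values. For Procr, Esam, Fgd5, Hlf and Mecom, the number 1 library lay below the other libraries of its group by over 1.5-fold in both groups. That pattern held for 5 of 10 members and for 3.6% of all genes tested. The number 1 library was the lowest in both groups, by any margin, for 6 of 10 members, Cd34 being the sixth, and for 23.0% of all genes. The replicate numbers come from the titles, and no label says what libraries of one number have in common. For Esam the highest library stood 6.67-fold above the lowest, for Fgd5 4.90-fold, for Procr 3.95-fold, for Hlf 3.24-fold and for Mecom 2.24-fold. For Cd34, Mllt3, Ctnnal1 and Cd48 this fold was 1.56, 1.5, 1.38 and 1.16. Slamf1 lay on neither side: its fold of 8.09 was the largest but rested on the library with 2 counts, and FLT3-ITD number 1 was the highest of its group.

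Set against the library of the same number, the KO library was lower for these 5 genes at every number. KO minus FLT3-ITD for Procr was -0.68, -0.41 and -0.25 on the log2 CPM scale at numbers 1, 2 and 3. For Fgd5 it was -1.06, -0.63 and -0.42, and for Esam -1.58, -0.16 and -0.135. For Hlf it was -0.52, -0.53 and -0.12, and for Mecom -0.075, -0.26 and -0.18. A KO library lower at all 3 numbers was found for 5 of 10 members and for 16.5% of all genes tested, and Cd48 was higher at all 3 (15.1% of all genes). Slamf1, Mllt3, Ctnnal1 and Cd34 changed sign between numbers. With the edgeR block for replicate number, which leaves 2 residual degrees of freedom against 4 without it, no member passed, and the smallest adjusted p was 0.148 for Fgd5, at a log2 fold change of -0.66 ± 0.15 (SE; 95% interval -1.02 to -0.30). The blocked intervals of Hlf (-0.62 to -0.15) and Procr (-0.74 to -0.11), which take no account of the number of genes tested, also lay below 0. These blocked intervals and p-values use the fit's total degrees of freedom, which add some borrowed across genes to the 2 residual ones. With the residual ones alone the intervals would be wider, and whether they would still lie below 0 was not tested. The unadjusted p of Fgd5, Hlf and Procr lay under 0.05 in that fit with KO lower, 3 of 10 members, against 4.92% of all genes. Leaving out both libraries of number 1 gave log2 fold changes of -0.34 for Procr, -0.14 for Esam, -0.54 for Fgd5, -0.33 for Hlf and -0.22 for Mecom, none of which passed. In that edgeR fit without a block, 3 of the 10 members had an unadjusted p under 0.05. Over all genes tested in it, 805 had an unadjusted p under 0.05 and 27 passed the adjusted threshold.

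**Figure D3:**
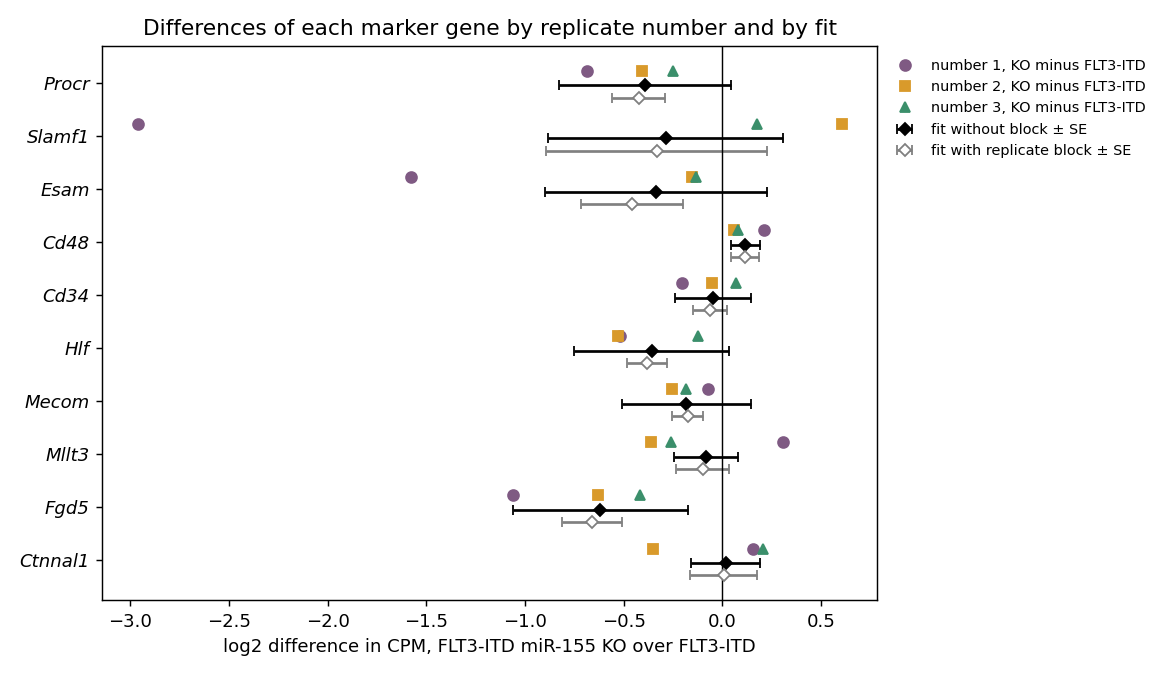
Log2 difference in CPM between KO and FLT3-ITD for each marker gene, with coloured points for the 3 comparisons of libraries of equal number, filled diamonds for the fit without a block and open diamonds for the blocked fit (bars ± SE). For Procr, Esam, Hlf, Mecom and Fgd5 all 3 coloured points lie left of 0; the Slamf1 point of number 1, at -2.96, rests on 2 counts in the KO library.

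Promoters are shown, as sequence only, for the 3 members with the smallest p in the blocked edgeR fit. Why members varied together between pools was not tested. RefSeq promoters (GRCm38.p6, 250 bases before each start) matched 9 of the 10 members, all but Esam, with 11 promoters in all. The stretches printed, of Procr, Fgd5 and Hlf, leave out bases inside annotated exons. Capitals mark GGAAG or its reverse complement, the core of sites bound by ETS factors.
Procr, chr2:155750967-155751116, plus strand: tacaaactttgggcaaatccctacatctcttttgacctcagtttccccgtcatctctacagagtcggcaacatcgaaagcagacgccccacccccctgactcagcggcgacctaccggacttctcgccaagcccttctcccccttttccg
Fgd5, chr6:91978715-91978877, plus strand: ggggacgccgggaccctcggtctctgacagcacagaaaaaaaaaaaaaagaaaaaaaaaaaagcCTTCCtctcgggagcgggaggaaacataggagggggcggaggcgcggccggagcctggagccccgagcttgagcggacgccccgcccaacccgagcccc
Hlf, chr11:90390918-90391167, minus strand: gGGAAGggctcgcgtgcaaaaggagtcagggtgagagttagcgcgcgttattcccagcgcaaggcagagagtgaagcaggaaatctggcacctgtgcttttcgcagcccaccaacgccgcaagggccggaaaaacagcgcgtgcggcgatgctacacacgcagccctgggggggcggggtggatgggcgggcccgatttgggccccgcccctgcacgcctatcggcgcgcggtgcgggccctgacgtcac
The whole 250 bases held GGAAG, on either strand, 1 time each in Procr, Fgd5 and Hlf, with that of Procr inside the part not printed. Over all member promoters 6 of the 11 held it, against 64.1% of all 32851 promoters of that length. AGATAA, a sequence bound by GATA factors, was in 0 of the 11 member promoters and in 10% of all promoters, so no GGAAG overlapped it there. TGTGGT, bound by RUNX factors, was in 1 of the 11 and in 14.0% of all, and CAGCTG, an E-box, in 2 of the 11 and in 13.0% of all; both strands were searched. A match is a description of letters and not evidence of binding.

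Genes with a like pattern over the pools were sought among all others. Of 10293 other genes whose mean log2 CPM reached 3, the 5 closest to the median profile of the 8 members other than Cd48 and Cd34 were Rbfox2, a splicing regulator, Zfp521, a zinc finger factor, Parp16, an ADP-ribosyltransferase, Emcn, the sialomucin endomucin found on stem cells and endothelium, and Arhgef12, a guanine nucleotide exchange factor. Closeness was the root mean square difference of centred log2 CPM over the 6 libraries, and was 0.072 for Rbfox2, 0.0846 for Zfp521, 0.0847 for Parp16, 0.0925 for Emcn and 0.0955 for Arhgef12. Not all 8 members followed their median profile. Procr, Hlf, Mecom, Fgd5 and Esam lay 0.123 to 0.379 from it, but Slamf1, Ctnnal1 and Mllt3 lay at 0.555, 0.594 and 0.664. Cd34 and Cd48, which did not enter it, lay at 0.308 and 0.599. Emcn stood at 5.505, 14.45 and 14.3 CPM in the KO libraries and at 8.89, 19.5 and 16.5 CPM in the FLT3-ITD libraries. These genes were chosen for their likeness, so their profile is a description of these pools. None of the 5 passed the threshold in edgeR (adjusted p 0.9996 each).

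**Figure D4:**
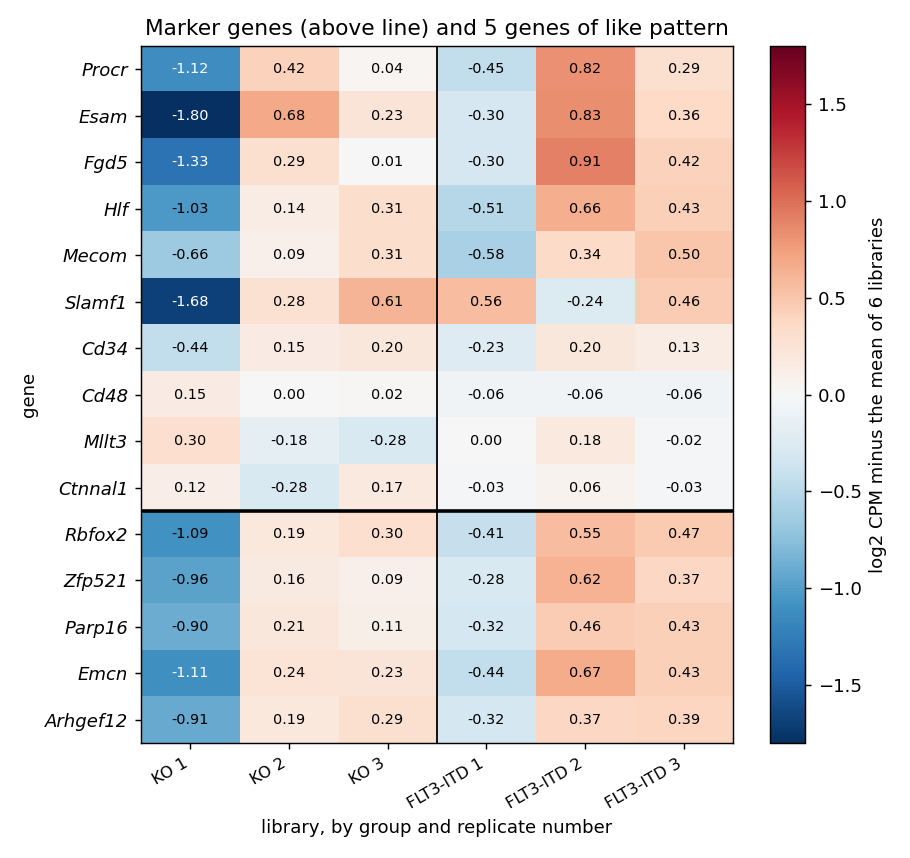
Log2 CPM of each gene minus its mean over the 6 libraries, with KO libraries left and FLT3-ITD libraries right; the marker genes are above the thick line and the 5 genes of like pattern below it. The first column, KO number 1, runs from -1.8 for Esam to 0.30 for Mllt3 among the marker genes.

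Other genes of the stem cell programme, a list of 42 genes without the 10 members that holds Emcn, were described in the same way. Of the 42, 39 were tested and 0 passed in edgeR, with or without the block, while 2 had an unadjusted p under 0.05 without the block and 10 with it, where all genes gave 3.9% without the block and 9.35% with it. DESeq2 and limma-voom also called 0, where over all genes they called 131 and 17. Of the 39, 28 had a negative log2 fold change, with a median of -0.13, against 0.001 for all genes. The number 1 library was the lowest of both groups for 24 of the 39, and by over 1.5-fold for 14, where all genes gave 23.0% and 3.6%. The KO library was lower at all 3 numbers for 12 of the 39, and higher at all 3 for 3, where all genes gave 16.5% and 15.1%. The smallest p belonged to Cd81, a tetraspanin (log2 fold change -0.31, adjusted p 0.473 in edgeR), which stood at 91.1, 90.8 and 102 CPM in the KO libraries and at 119, 113 and 121.5 CPM in the FLT3-ITD libraries. Next came Neo1, a receptor for netrins and repulsive guidance molecules (0.80, adjusted p 0.979), Ifitm3, an interferon-induced membrane protein (0.22, 0.9996), and Hoxa5, a homeobox factor (-0.60, 0.9996).

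Summed levels of other cell types' markers differed between pools and, for B and plasma cell and neutrophil markers, did not overlap between the groups; their part in the marker gene values was not tested. Macrophage markers summed to 523, 124 and 163 CPM in the KO libraries 1, 2 and 3 and to 710, 103 and 129 CPM in the FLT3-ITD libraries, so the libraries with low Procr, Esam, Fgd5, Hlf and Mecom were those with high macrophage RNA. Of 9 listed, 8 were tested and 0 passed; Vcam1, Cd68 and Mrc1 were the most abundant, and Cd5l had 49, 1 and 4 counts in the KO libraries and 144, 2 and 1 counts in the FLT3-ITD libraries. B and plasma cell markers summed to 716 to 1812 CPM in KO and to 3123 to 4525 CPM in FLT3-ITD libraries, led by Igj, Xbp1 and Irf4. All 10 that were tested had a negative fold change. In edgeR 0 passed without the block, 9 had an unadjusted p under 0.05, and 5 fell with the block. Over all genes tested, 49.8% had a negative fold change, 3.9% an unadjusted p under 0.05, and 1.04% fell with the block. Taken singly, 4.79% of all genes had groups apart with KO lower. Neutrophil markers summed to 378 to 580 CPM in KO and to 655 to 804 CPM in FLT3-ITD libraries; all 10 had a negative fold change, 0 passed and 8 had an unadjusted p under 0.05, and S100a9, S100a8 and Ltf led. T and NK cell markers summed to 61.3 to 83.6 CPM in KO and to 71.6 to 81.5 CPM in FLT3-ITD libraries, led by Nkg7, with 0 of 7 tested genes passing and Gzma at 0 counts in each KO library and at 1, 0 and 3 counts in the FLT3-ITD libraries.

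Procr, Esam, Cd34 and Fgd5 are also carried by endothelial cells, so the defining markers of endothelium were counted. Of 13, 6 were too low to test (Plvap, Sox17, Sox18, Ptprb, Cldn5 and Lyve1), with 0 to 10 counts each in the KO libraries and 0 to 12 in the FLT3-ITD libraries. The list summed to 202 to 255 CPM in KO and to 219 to 248 CPM in FLT3-ITD libraries, mostly from Pecam1, Egfl7 and Tie1, which haematopoietic cells also carry. Cdh5, the cadherin of endothelial junctions, stood at 3.21, 1.66 and 2.48 CPM in the KO libraries and at 2.17, 2.29 and 0.9753 CPM in the FLT3-ITD libraries. Tie1 stood at 16.1, 68.4 and 47.0 CPM in the KO libraries and at 27.9, 68.6 and 50.8 CPM in the FLT3-ITD libraries. The number 1 library was the lowest of both groups for Tie1 and Egfl7, 2 of the 7 endothelial genes tested, and the highest of both groups for Stab2 and Kdr.

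Overlapping annotation touched a pair of members. Exons of Mecom overlapped those of the antisense gene Mecomos over 81 bases, and exons of Cd34 those of the antisense gene Gm16897 over 148 bases, and these 2 antisense genes had 5 counts and 1 count over all 6 libraries. The other members shared no exon with another annotated gene. In the authors' deposited table, 8 of the 10 log2 fold changes were also negative, from -0.62 for Fgd5 to 0.12 for Cd48, and the adjusted p was 0.9999 for every member. Of the 16577 genes given an adjusted p there, 106 lay under 0.05.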

How the data were processed

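Gene counts and FPKM values were made and deposited by the authors, in 1 table with 6 libraries of each, and the counts were not normalized. The authors' FPKM are those counts times a factor per gene and per library, but the sources used here do not give the gene length. The deposited table also gave the authors' log2 fold change and adjusted p-value per gene. The tools were Novoalign 2.08.01 and DESeq2 1.10.1, on mm10, per the submitters' processing notes. The sources used here do not name the counting program, its gene models or its strand setting.

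The test between groups was that of edgeR 4.0.16, run in R 4.3.3 (TMM, filterByExpr with a minimum count of 10 and a minimum total of 15, two-sided quasi-likelihood F test on group, Benjamini-Hochberg over 13217 genes, threshold 0.05). SE was derived from the F statistic, and the 95% intervals from that SE with degrees of freedom that include those borrowed across genes. CPM use TMM-scaled library sizes, and centred log2 CPM a prior count of 2. A count of 0 allows up to 3 counts, which is 0.325 to 0.459 CPM. Annotation was GENCODE M21 (GRCm38, the assembly of mm10), which 21966 of 22475 gene identifiers matched. Alternatives were DESeq2 1.42.0, limma-voom 3.58.1, other size factors and filters, immunoglobulin-free library sizes, omitted libraries and a replicate block.

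Libraries of equal number deviated together: the correlation over genes of their deviations from the group mean was 0.573, 0.526 and 0.219 for numbers 1, 2 and 3, each above the limit of 0.1. Of the unequal pairs, KO number 2 with FLT3-ITD number 3 also exceeded it (0.133). The numbers were taken to pair the libraries, from these values alone, since no label says what a number marks; the fit without a block was kept as the one reported, with blocked values beside it. The members and lists were chosen with earlier results of these data known. Named genes were all members, Kit, Ly6a, the host transcript, the measured SLAM family, up to 4 genes of smallest p per list, the 3 most abundant markers of other cell types, and the 5 of like pattern; Cd5l, Gzma, Cdh5 and the untested endothelial genes were added as defining markers after their values were seen. One further marker is not reported here.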

Additional observations from a re-analysis of the deposited data

How the results depend on the processing

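No marker gene and no other stem cell programme gene passed under any of the alternatives run. The count of 21 genes over all genes became 180 with the replicate block, 131 with DESeq2, 97 without a low-count filter, 32 at a threshold of 0.1, 10 when the number 2 libraries were omitted and 6 when those of number 3 were; the causes were not tested. Omitting 1 library gave 0 to 27: 0 without FLT3-ITD number 1 or 3 (766 and 356 genes with an unadjusted p under 0.05), 9 without FLT3-ITD number 2 and 8 without KO number 2. Leaving out 1 library gave log2 fold changes of -0.75 to -0.04 for Procr, -0.63 to -0.05 for Hlf, -0.95 to -0.27 for Fgd5, 0.07 to 0.14 for Cd48, -0.749 to 0.174 for Slamf1, -0.448 to 0.054 for Mecom, -0.0687 to 0.144 for Ctnnal1, -0.28 to 0.0274 for Mllt3, -0.839 to 0.112 for Esam and -0.165 to 0.135 for Cd34. It also reversed Kit (-0.286 to 0.0334), Arhgef12 (-0.428 to 0.0667), Lsp1 (-0.135 to 0.44), Slamf8 (-0.0201 to 0.851), Cd84 (-0.109 to 0.00378), Slamf9 (-0.761 to 0.155), Slamf7 (-0.411 to 0.377) and Ly9 (-0.15 to 0.212). Without both libraries of number 1 the sign turned for Slamf1 (0.349), Ctnnal1 (-0.0555), Cd34 (0.0113), Lsp1 (-0.0746), Cd244 (-0.0637), Cd84 (0.0526) and Slamf7 (-0.276), without both of number 2 for Mllt3 (0.0466), without both of number 3 for Ctnnal1 (-0.0819), and with limma-voom for Ctnnal1 (-0.0046) and Slamf7 (-0.0101). Of the 159 values of the members, 143 kept direction and side of the threshold and 16 reversed. The stricter filter removed Slamf1. The replicate block and DESeq2 each gave the host transcript an adjusted p under the threshold. The block also called 5 B and plasma cell markers and changed no other call among the members, the lists or the genes of like pattern. By CPM in place of FPKM, 6 of the 10 members kept their place in the level order. The count of members lower in KO at every number, tried without each number after seeing the data, was 6 without number 1, 5 without number 2 and 6 without number 3. Leaving out a number removes a condition, so this count could not fall below the 5 found with all numbers. It therefore says nothing on stability, and the share of all genes under the looser rule was not computed.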

Other observations

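Genes that mark progenitors inside and below the gate did not pass either (edgeR, 0 called in each list, with or without the block). Multipotent and lymphoid-primed progenitor genes (13 of 15 tested, 0 with an unadjusted p under 0.05) had log2 fold changes with a median of -0.02: Mef2c, a transcription factor, at -0.15 and Lsp1, a leukocyte actin-binding protein, at 0.24 had the smallest p. Myeloid-primed genes (14 tested, 0 with an unadjusted p under 0.05) had a median of 0.065, with Ly6c2, a surface protein of monocytic cells, at 0.35 and Cebpa, a factor of myeloid commitment, at 0.13. Megakaryocyte and erythroid-primed genes (12 of 15 tested, 0 with an unadjusted p under 0.05) had a median of -0.24, with the erythroid gene Ermap at -0.80 and the urea transporter Slc14a1 at -0.25. S and G2/M phase genes (19 tested, 1 with an unadjusted p under 0.05) had a median of -0.000499. Of them Pcna, the sliding clamp of replication, had 0.17 and the mitotic kinase Cdk1 0.09. In the order of the lists above, the number 1 library was the lowest of both groups for 2, 2, 5 and 0 genes. By over 1.5-fold it was so for 1, 0, 1 and 0. All genes tested gave 23.0% and 3.6%.

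The other SLAM family genes did not share one direction (7 tested, 0 called in edgeR and 0 with an unadjusted p under 0.05). Their log2 fold changes were -0.67 for Slamf6, 0.55 for Slamf8, 0.12 for Cd244, -0.07 for Cd84, -0.27 for Slamf9, 0.12 for Slamf7 and 0.03 for Ly9. Slamf7, which plasma cells and myeloid cells also carry, stood at 117, 55.0 and 44.15 CPM in the KO libraries and at 78.1, 55.2 and 65.1 CPM in the FLT3-ITD libraries. Slamf8, a receptor of macrophages and dendritic cells, stood at 102.5, 50.1 and 32.9 CPM in the KO libraries and at 53.2, 35.5 and 37.9 CPM in the FLT3-ITD libraries. For both, the number 1 library was the highest of each group.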
